A study of Mus musculus with 8 samples.

Results

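The 4 long non-coding RNA (lncRNA) genes known only by annotation symbols, Gm12840, Gm29408, Gm20186 and Gm9961, were examined in mouse brown adipose tissue (BAT). They were chosen by their values in BAT of mice at 4 °C against 22 °C, as lncRNA genes with a change between these temperatures, and they are 4 of 7716 lncRNA genes among 49452 genes measured. Their levels in the cold are therefore given as a description, with no test, whereas the rule did not use their levels on high-fat diet (HFD) or the levels of neighbouring genes. All 4 were found, by Ensembl identifier, and all 4 passed the filter on low values in both comparisons.

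The tissue came from male C57BL/6 mice, with 2 libraries in each of 4 groups. The 22 °C and 4 °C mice were 10 to 12 weeks old, and the 4 °C mice spent 24 h in the cold, the last 4 h of it fasted. Whether the 22 °C mice were fasted is not clear from the methods, so cold and fasting cannot be told apart. The mice on control diet (CD, called normal chow in the labels) and on HFD were 32 weeks old after 28 weeks on the diet. The labels do not say that libraries of a group came from separate animals, so the p-values below measure only the spread between these libraries. Levels are FPKM, that is, fragments scaled to transcript length and to the mapped fragments of the library.

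BAT burns lipid and glucose to make heat, and cold raises the sympathetic drive and cAMP signalling that switch on its thermogenic genes. LncRNAs are transcripts without a recognised protein product, many spliced and polyadenylated like messenger RNA. They are known to act in the nucleus or cytoplasm as scaffolds, guides or decoys, or through the act of their own transcription on genes nearby, and many are present at low levels and in few tissues. A part of the annotated lncRNA genes lies in repeated or duplicated sequence, where a short read can fit more than 1 place.

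Gm12840 (ENSMUSG00000086320) lies at chr4:117700188-117700923 (GRCm38, plus strand) between protein-coding genes and has 2 exons in a transcript of 627 bases. Gm29408 (ENSMUSG00000099406) lies at chr9:90938980-90939195 (plus strand) and is a single exon of 216 bases. Gm20186 (ENSMUSG00000106874) lies at chr6:18845910-18848207 (minus strand) with 3 transcripts of 737, 470 and 741 bases. It runs across Gm26809 (ENSMUSG00000097815), a lncRNA gene of 3 exons at chr6:18844220-18847360 on the plus strand. Gm9961 (ENSMUSG00000055015) lies at chr16:11901363-11930600 (plus strand), with 3 exons joined into 547 bases. It starts inside Cpped1, a gene for a protein phosphatase on the opposite strand, with 0 exonic bases in common.

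The 3 members that were high in the cold all matched sequence of one chromosome 6 locus, at 2 stretches that do not overlap. Gm12840 and the 737-base transcript of Gm20186 were identical at 612 of 628 aligned positions (97.5%), with 14 substitutions and 2 gap bases, and the alignment ran over all 627 bases of Gm12840. Gm29408 was identical at 212 of 216 positions (98.1%) to bases 2463 to 2678 of Gm26809, again over its whole length. The first 240 bases of Gm12840 and the matching bases 23 to 262 of that transcript (chr4:117700188-117700536, plus strand, and chr6:18846385-18846741, minus strand, both with an intron left out) are shown to let the copies be compared, with the 3 bases that differ in capitals.
Gm12840: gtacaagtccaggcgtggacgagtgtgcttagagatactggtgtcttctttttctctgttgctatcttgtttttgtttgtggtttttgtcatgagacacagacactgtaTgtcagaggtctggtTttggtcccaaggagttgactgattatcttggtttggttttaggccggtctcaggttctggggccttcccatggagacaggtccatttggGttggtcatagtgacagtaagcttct
Gm20186: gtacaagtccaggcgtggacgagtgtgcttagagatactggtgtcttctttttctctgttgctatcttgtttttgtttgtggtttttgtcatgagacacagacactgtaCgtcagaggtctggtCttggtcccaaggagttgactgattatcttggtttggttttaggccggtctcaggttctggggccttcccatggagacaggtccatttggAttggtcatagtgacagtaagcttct

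The whole of Gm29408 and its match in Gm26809 (chr6:18846842-18847057, plus strand) are shown for the same reason, with the 4 differing bases in capitals.
Gm29408: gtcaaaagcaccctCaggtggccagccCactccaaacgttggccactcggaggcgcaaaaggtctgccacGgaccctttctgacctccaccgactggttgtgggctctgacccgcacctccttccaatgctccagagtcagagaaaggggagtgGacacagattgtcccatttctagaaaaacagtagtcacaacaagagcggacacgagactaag
Gm26809: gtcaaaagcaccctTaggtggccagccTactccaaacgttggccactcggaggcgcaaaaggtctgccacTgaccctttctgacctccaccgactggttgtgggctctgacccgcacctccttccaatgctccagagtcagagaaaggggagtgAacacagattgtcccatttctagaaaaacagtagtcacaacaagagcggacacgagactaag

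Gm9961 had no such relative, with 0 matches among the other annotated transcripts. Its first exon (chr16:11901363-11901574, plus strand) is shown in lower case as the sequence of the member that was low in the cold.
Gm9961: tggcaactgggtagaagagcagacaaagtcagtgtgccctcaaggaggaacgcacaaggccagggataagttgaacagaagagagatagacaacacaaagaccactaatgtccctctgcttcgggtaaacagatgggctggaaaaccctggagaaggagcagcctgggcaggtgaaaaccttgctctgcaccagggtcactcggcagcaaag

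The map of the chromosome 6 locus places these matches side by side. Gm12840 aligned with parts of both exons of the 737-base transcript of Gm20186, with its splice junction at the same place. Gm29408 aligned just beyond, with a stretch that is exonic in Gm26809 and outside the exons of Gm20186, and it gave no match to Gm12840 or Gm20186 themselves. Gm12840 also matched the reverse complement of Gm26809 at 97.1% over 513 positions. Gm20186 and Gm26809 are transcribed towards each other across 855 shared exonic bases, 81.4% of the 1050 exonic bases of Gm20186 and 28.7% of the 2981 of Gm26809. Another annotated gene, AC160336.1, matched Gm12840 at 92.7% over 467 bases and Gm20186 at 91.2% over 555 bases. Gm9973 matched Gm20186 at 98.7% over 76 bases. Only annotated transcripts were searched, so copies elsewhere in the genome were not counted.

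**Figure D1:**
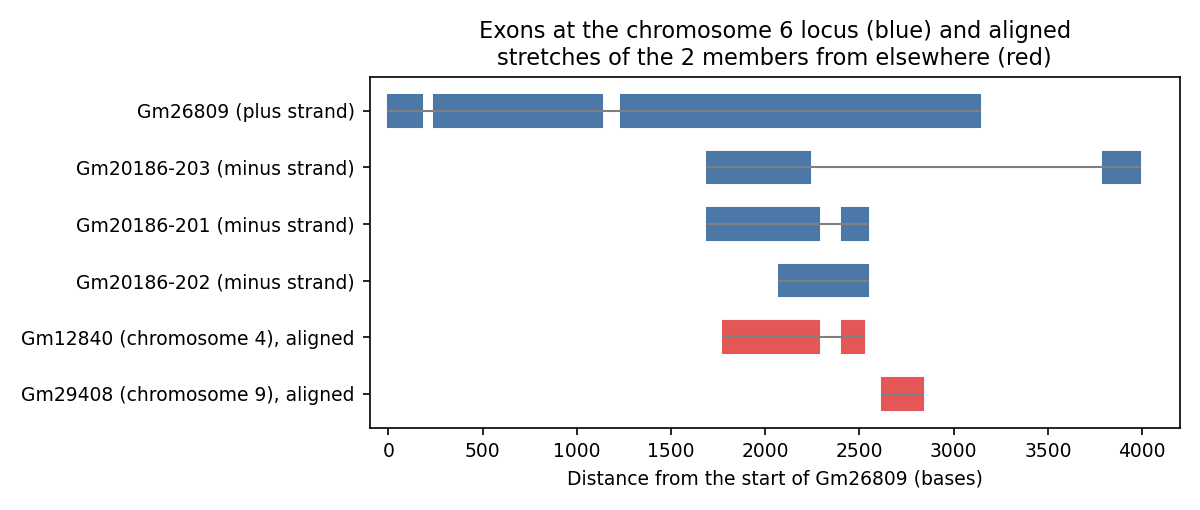
Exons of the lncRNA genes Gm26809 and Gm20186 (blue boxes, introns as lines) and the places where Gm12840 and Gm29408 align (red boxes), by distance in bases from the start of Gm26809. The red boxes of Gm12840 fall within the exons of the 737-base transcript of Gm20186, and the red box of Gm29408 falls in the third exon of Gm26809 only.

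How far a read could be told apart was measured as the share of 100-base windows of each gene's transcripts that occurred, base for base, in a transcript of another gene on either strand. In Gm12840, 75 of 528 windows (14.2%) were shared, all with Gm20186 or Gm26809. In Gm20186, 756 of 1044 windows (72.4%) were shared, of which 75 (7.18%) were shared with a gene other than its antisense partner Gm26809. Gm29408 shared 0 of 117 windows and Gm9961 shared 0 of 448. Exact windows are thus rare in Gm12840 and none were found in Gm29408, but alignment with mismatches is looser than an exact match. Whether the FPKM values used the strand is not stated, and the part that fragments fitting several copies play in the values below was not tested. The levels of Gm12840, Gm20186, Gm29408 and Gm26809 are uncertain for this reason, and their changes cannot be taken as independent of each other.

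Gm12840 measured 22.0 and 20.1 FPKM in BAT kept at 22 °C, and 191 and 175 FPKM after cold. The means were 21.1 ± 1.403 and 183 ± 11.4 FPKM (SD, n = 2 each), an 8.71-fold higher mean at 4 °C. On the log2(FPKM + 1) scale, used for every log2 fold change here, the difference was 3.06. Both cold libraries were above both others, as the choice of the gene implies. About 1281 and 1131 fragments lay behind the 22 °C values and about 8134 and 8680 behind the 4 °C values, as read from the smallest step between low FPKM values.

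Gm20186 moved in the same range, from 23.8 and 26.0 FPKM at 22 °C to 188 and 160 FPKM at 4 °C. Its means were 24.9 ± 1.56 and 174 ± 19.4 FPKM (SD, n = 2 each), 6.99-fold higher in the cold, with a log2 fold change of 2.75. The antisense gene Gm26809 was at 30.2 and 29.1 FPKM at 22 °C and 180 and 168 FPKM at 4 °C, a log2 fold change of 2.51. For all 3 genes both 4 °C libraries were above both 22 °C libraries. The ratio of Gm12840 to Gm20186 stayed between 0.670 and 1.09 over the 8 libraries, and that of Gm26809 to Gm20186 between 0.960 and 1.30. These near-equal levels were measured in genes on 2 chromosomes that share sequence, and in the last case share exons.

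Gm29408 was lower and less even at 22 °C, with 8.92 and 2.82 FPKM, and reached 69.0 and 60.4 FPKM at 4 °C. Its means were 5.87 ± 4.32 and 64.7 ± 6.11 FPKM (SD, n = 2 each), an 11.03-fold higher mean, with a log2 fold change of 3.41 that was 4.10 without 22 °C replicate 4 and 2.72 without 22 °C replicate 7. The 22 °C values rested on about 68 and 22 fragments and the 4 °C values on about 389 and 400. In so short a transcript, 1 fragment was worth 0.127 to 0.178 FPKM, against 0.0172 to 0.0235 FPKM in Gm12840. The ratio of Gm29408 to Gm26809 ran from 0.0354 to 0.383 over the 8 libraries and was highest in the 4 °C libraries, at 0.383 and 0.359. At 22 °C it was 0.295 and 0.0968, and the low ratios rest on few fragments.

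Gm9961 went the other way, from 1.62 and 1.57 FPKM at 22 °C to 0.369 and 0.0732 FPKM at 4 °C. Its means were 1.60 ± 0.0398 and 0.221 ± 0.209 FPKM (SD, n = 2 each), 7.22-fold lower in the cold. The log2 fold change was −1.10 with a pseudocount of 1 FPKM and −2.57 with 0.1 FPKM, since the added constant is large beside such low values. About 78 and 74 fragments were counted at 22 °C but only about 13 and 3 at 4 °C, so the groups are apart but the size of the difference is known only roughly.

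**Figure D2:**
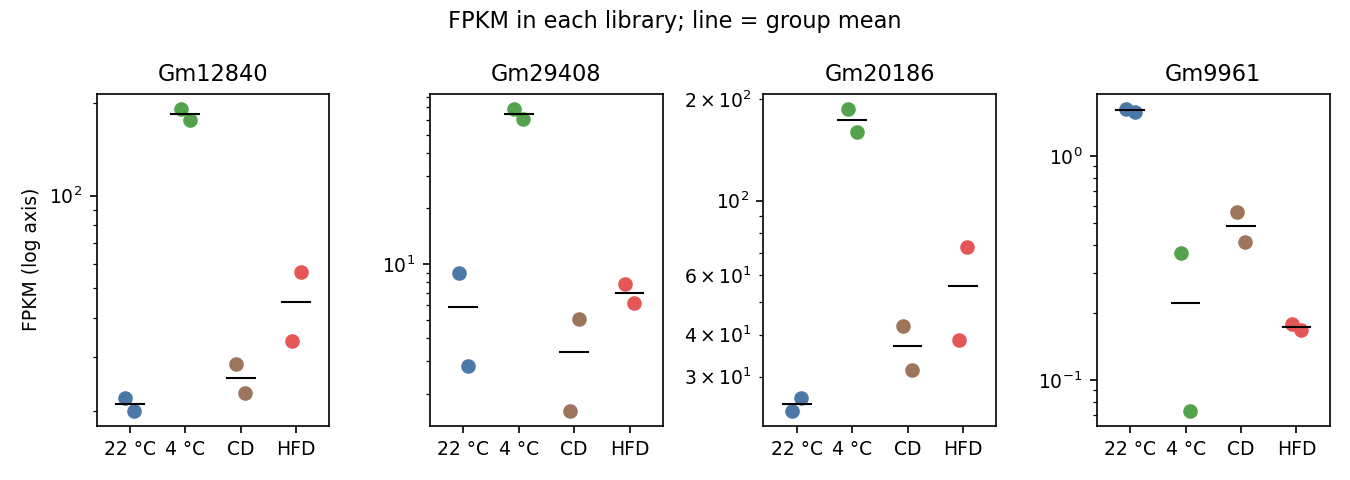
FPKM of the 4 lncRNA genes in each library (points, log axis with its own range in each panel) by group, with the group mean as a line. The 4 °C libraries stand above all others for Gm12840, Gm29408 and Gm20186, and for Gm9961 the 22 °C libraries stand above all others.

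Of 17477 autosomal genes compared between temperatures, 37.9% had both 4 °C libraries above both 22 °C libraries and 20.6% had both below. Those shares are the background for 2 libraries a group, and since the members were selected on this contrast, nothing is read from their falling on one side. Past the threshold (limma, Benjamini-Hochberg adjusted p under 0.05 and a log2 fold change of at least 1) were 1.44% of genes, with 213 higher and 39 lower, and among 1974 lncRNA genes 22 higher and 1 lower. The count over all genes was 0 when either 4 °C library was left out. Around the choice of members, the rise next below that of Gm20186 was 2.60 in Gm17116, followed by Gm26809, and the smallest rise inside the threshold was that of Gm15179, 1.01. Among the lncRNA genes that missed the threshold, the 3 with the largest falls had larger fitted values than the −1.10 of Gm9961. How many more did was not counted. Hotairm1 was at −1.27, with 10.2 and 13.6 FPKM at 22 °C and 5.23 and 3.52 FPKM at 4 °C, and Gm38079 at −1.28. Gm26870 was at −2.65, with 6073 and 10.5 FPKM in its 22 °C libraries and 1.46 and 720 FPKM in its 4 °C libraries. The median log2 fold change over the lncRNA genes tested was −0.00.

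By mean level, Gm12840 ranked 20 and Gm20186 ranked 18 among 6987 autosomal lncRNA genes at 22 °C, and they ranked 5 and 7 at 4 °C. These ranks are of FPKM values that are uncertain where copies share sequence. Gm29408 moved from rank 84 to rank 12, and Gm9961 from rank 283 to rank 1233. On CD the ranks were 20, 16, 130 and 650 for Gm12840, Gm20186, Gm29408 and Gm9961, and on HFD 18, 12, 81 and 1460.

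The diet comparison was not the one that chose the members, although its results were known by then, and asked whether they also differ in BAT of mice on HFD. None of the 4 passed the threshold (limma on log2(FPKM + 1), fitted over 17543 genes, of which 0.0684% passed; 2532 genes and 1 of the 4 members had an unadjusted p under 0.05). The intervals of the 3 high members were wide and included 0, with positive fitted differences. That of Gm9961 was narrower and lay below 0. Its width depends on the added constant, since the standard error was 0.10 with 1 FPKM added and 0.34 with 0.1 FPKM. Both HFD libraries lay above both CD libraries for Gm12840 and Gm29408, as for 39.9% of all genes tested, and below both for Gm9961, as for 5.8% of them.

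Gm12840 was at 28.5 and 22.9 FPKM on CD and at 33.7 and 56.5 FPKM on HFD, means of 25.7 ± 4.00 and 45.1 ± 16.1 FPKM (SD, n = 2 each). Its log2 fold change was 0.75 with a standard error of 0.45, a 95% interval from −0.30 to 1.80 and a limma adjusted p = 0.5002. It was 0.39 without HFD replicate 6 and 1.12 without HFD replicate 2. The groups did not overlap, but the HFD pair was spread more widely than the distance between the groups. Gm20186 was at 42.6 and 31.5 FPKM on CD and at 38.4 and 73.1 FPKM on HFD, so that the groups overlapped. Its log2 fold change was 0.52 (standard error 0.49, interval −0.63 to 1.68, limma adjusted p = 0.677), or 0.07 without HFD replicate 6 and 0.98 without HFD replicate 2, and that of Gm26809 was 0.74 (limma adjusted p = 0.555). For Gm12840, Gm20186 and Gm26809 alike, HFD replicate 6 was the highest library outside the cold group.

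Gm29408 was at 1.63 and 5.06 FPKM on CD and at 7.79 and 6.16 FPKM on HFD, counted from about 13, 30, 48 and 35 fragments. Its log2 fold change was 0.99 (standard error 0.44, interval −0.03 to 2.01, limma adjusted p = 0.358). The CD libraries decide that value, which was 1.59 without CD replicate 8 and 0.39 without CD replicate 6. With a single CD library left, only these sizes are given. Gm9961 was at 0.564 and 0.412 FPKM on CD and at 0.179 and 0.168 FPKM on HFD, from about 26, 15, 7 and 6 fragments. Its log2 fold change was −0.34 (standard error 0.10, interval −0.57 to −0.11, unadjusted p = 0.0104, limma adjusted p = 0.207). With a pseudocount of 0.1 FPKM it was −1.09 (standard error 0.34, limma adjusted p = 0.249), and with median centring −0.70. The size of this difference thus depends on the added constant and the scaling. The HFD libraries were both lower and close together, which did not pass after adjustment over all genes. The changes in cold and diet come from separate sets of libraries, and the difference between them was not tested.

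**Figure D3:**
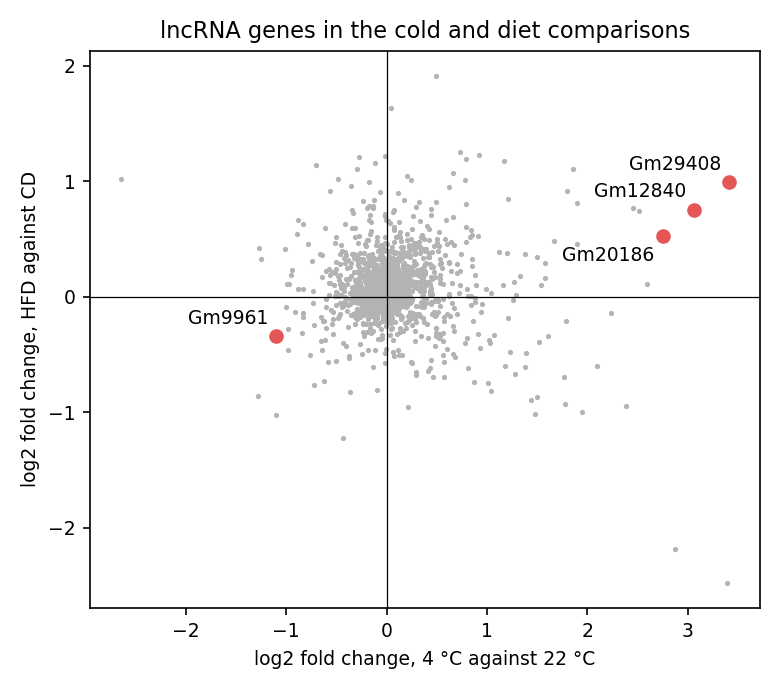
Log2 fold change of FPKM + 1 in the cold (x axis) and on HFD (y axis) for 1760 lncRNA genes tested in both comparisons (grey points) with the 4 members in red. Gm29408, Gm12840 and Gm20186 lie at the right edge with diet values of 0.99, 0.75 and 0.52, and Gm9961 lies at −1.10 and −0.34.

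Over the groups, the mean of Gm12840 rose in the order 22 °C, CD, HFD and 4 °C, and the order was the same for Gm20186. The 22 °C and CD means of Gm12840, 21.1 and 25.7 FPKM, differed by little more than the spread of the CD pair, while for Gm20186 the means were 24.9, 37.0, 55.8 and 174 FPKM and CD and HFD overlapped. For Gm29408 the order was CD, 22 °C, HFD and 4 °C, with 3.34, 5.87, 6.97 and 64.7 FPKM. The 22 °C libraries enclosed both HFD libraries and 1 of the CD libraries, so that 22 °C did not differ from either beyond its spread, while CD and HFD did not overlap. Gm9961 ran from HFD, 0.173 FPKM, through 4 °C and CD to 22 °C, 1.60 FPKM, and its HFD values fell within the range of the 4 °C pair. The mice of the 2 experiments differ in age, so levels across the experiments are set side by side only.

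Whether genes close by differed too was asked of the 3 nearest protein-coding genes on each side of every member. Of these 24 genes, chosen by position alone, 16 could be tested in the cold and 0 passed the threshold (limma; 1.44% of all genes did), with 4 at an unadjusted p under 0.05 against 4280 of all 17477 genes. Their median log2 fold change was 0.02, within a range of −0.73 to 0.56. On HFD 0 of 16 tested passed (limma; 0.0684% of all genes did), with 1 at an unadjusted p under 0.05 against 2532 of all 17543 genes, a median of 0.22 and a range of −0.14 to 0.62. The median over all genes tested was 0.07 in the cold and 0.18 on HFD.

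Lsm8, which encodes a subunit of the ring that binds U6 small nuclear RNA in splicing, starts 371 bases beyond the Gm20186 gene on the other strand. This places it back to back with the 741-base transcript of Gm20186, while the transcripts of 737 and 470 bases start further inside. Lsm8 was at 5.33 and 6.22 FPKM at 22 °C and at 8.30 and 5.90 FPKM at 4 °C. The groups overlapped, and the log2 fold change was 0.25 (standard error 0.22, interval −0.32 to 0.81, limma adjusted p = 0.543). On the other side of Gm20186 the nearest protein-coding gene, Cttnbp2, was 331 kb away and barely present, with values from 0.0454 to 0.172 FPKM.

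Dmap1, which encodes a partner of the DNA methyltransferase DNMT1, lies 17.9 kb from Gm12840. It was at 4.74 and 4.42 FPKM at 22 °C and 6.05 and 4.73 FPKM at 4 °C, with a log2 fold change of 0.19 (standard error 0.20, limma adjusted p = 0.592). Rnf220, an E3 ubiquitin ligase gene 203 kb away, was higher in both cold libraries with a log2 fold change of 0.56, the highest of the neighbours, which did not pass (limma adjusted p = 0.163). On the other side of Gm12840, Gm12845 and Klf17 were near 0 in every library, and Slc6a9, a glycine transporter gene, ran from 0.287 to 0.664 FPKM with a log2 fold change of −0.07 in the cold (limma adjusted p = 0.654).

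Gm29408 lies in a wide gap between protein-coding genes, 668 kb from Tbc1d2b, a GTPase-activating protein of Rab signalling, and 419 kb from Zic1, a zinc-finger transcription factor known as a marker of classical brown fat. Tbc1d2b was at 2.89 and 2.86 FPKM at 22 °C and at 1.35 and 1.33 FPKM at 4 °C. Its groups were tight and apart, yet the log2 fold change of −0.73 was under the fold limit and the limma adjusted p was 0.0743. Zic1 was at 1.38 and 2.12 FPKM at 22 °C and 2.45 and 2.70 FPKM at 4 °C, a log2 fold change of 0.39 (limma adjusted p = 0.290). Neither passed the threshold.

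Cpped1, the phosphatase gene that Gm9961 starts in, was at 9.72 and 10.7 FPKM at 22 °C and at 15.1 and 11.4 FPKM at 4 °C. Its log2 fold change of 0.34 (standard error 0.22, limma adjusted p = 0.389) had the opposite sign to that of Gm9961. The nearest protein-coding gene that does not overlap Gm9961 is Shisa9, 53.5 kb away, which reached no more than 0.0830 FPKM in any library. Gspt1, the translation release factor gene on the side of Cpped1, had a log2 fold change of −0.01.

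**Figure D4:**
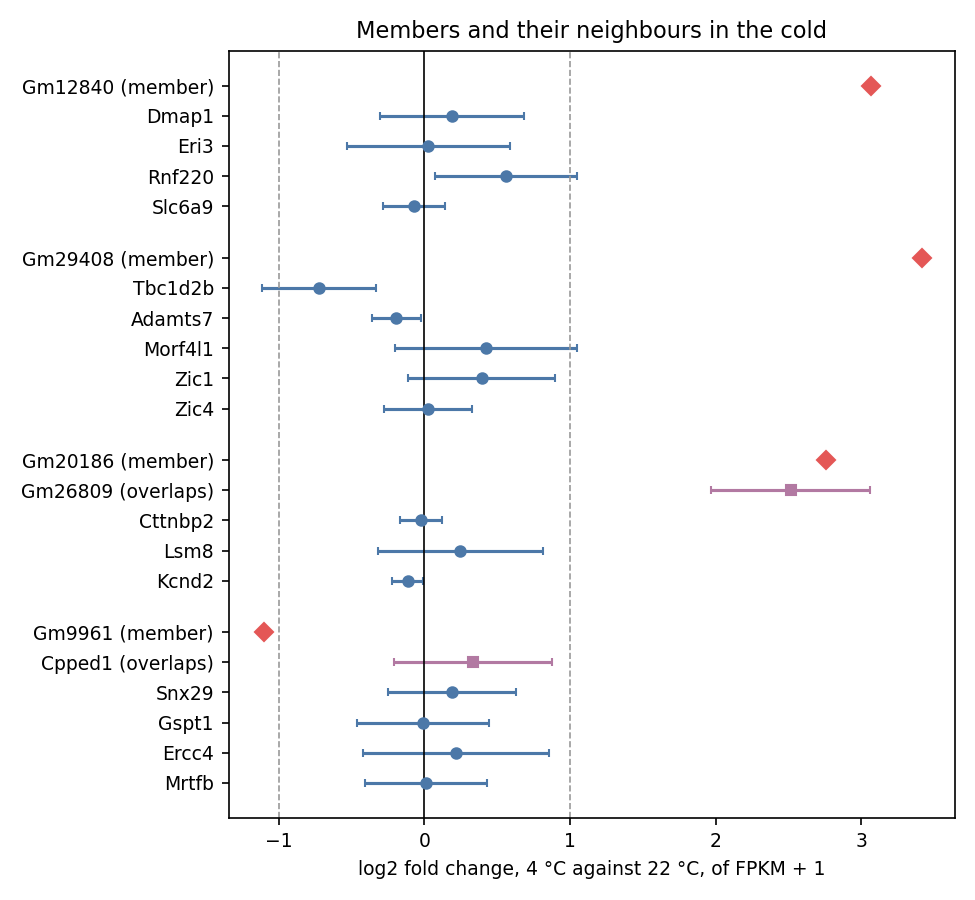
Log2 fold change at 4 °C against 22 °C of each member (red diamonds, no interval since the contrast chose them), of the overlapping genes (purple squares) and of the tested nearest protein-coding genes (blue circles), with 95% intervals from limma; dashed lines mark the fold limit. The nearest protein-coding genes lie between −0.73 and 0.56, and Gm26809 lies at 2.51.

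Genes with levels most like each member were named by Pearson's r of log2(FPKM + 1) over the 8 libraries, among 9923 protein-coding and 429 lncRNA genes whose mean level reached 1 FPKM. With 2 libraries in each of 4 groups, such values mostly follow the group means, so they are a description. For Gm12840 the highest protein-coding gene was Maff, a small Maf transcription factor (r = 0.996), which went from 1.61 and 1.09 FPKM at 22 °C to 15.1 and 12.003 FPKM at 4 °C. Pmf1, a kinetochore protein gene (0.989), and Adam12, a metalloprotease gene (0.987), came next. For Gm20186 they were Stard5, a lipid-binding START-domain protein gene (0.993), Pmf1 (0.990) and the homeobox gene Cux1 (0.990). Gm12840 and Gm20186 were each other's closest lncRNA gene (0.990), between copies that share sequence.

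For Gm29408 the closest were Cxcl13, a B-cell chemokine gene (0.986), Pld1, phospholipase D (0.981), and the zinc-finger gene Zbtb10 (0.973). Cxcl13 was at 2.51 and 0.990 FPKM at 22 °C and 15.3 and 8.64 FPKM at 4 °C, and like Gm29408 it was higher in 22 °C replicate 4 than in replicate 7. The closest lncRNA gene was Gm17251 (0.926). For Gm9961 they were the orphan receptor gene Gprc5c (0.984), the haem-binding protein gene Pgrmc2 (0.969) and Itpka, an inositol-trisphosphate kinase gene (0.959), with the lncRNA gene Gm45091 at 0.920. Gprc5c was at 5.29 and 5.39 FPKM at 22 °C and 2.57 and 1.62 FPKM at 4 °C. Gm29408 had r = 0.902 with Gm12840 and 0.837 with Gm20186.

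Of 14 thermogenic genes 4 rose and 0 fell past the threshold in the cold (limma), against 1.44% of all genes, and their median log2 fold change was 0.98. The 4 were Dio2, the deiodinase that activates thyroid hormone (log2 fold change 3.01, limma adjusted p = 0.0196), the coactivator gene Ppargc1a (2.92, 0.0208), the fatty acid elongase gene Elovl3 (4.58, 0.0467), and Fgf21. Ucp1, the uncoupling protein of brown fat, was at 2.56 with a limma adjusted p of 0.0646. Over the alternatives the count of 4 ran from 0, without either 4 °C library or with no filter, to 6 with the kind of library as a term. On HFD 0 of the 14 passed (limma), 1 having an unadjusted p under 0.05, with a median of −0.15, while 2 passed with the kind of library as a term and 1 with median centring or without either CD library. Elovl3 was at 234 and 118 FPKM on CD and at 18.1 and 17.8 FPKM on HFD, a log2 fold change of −3.14 (limma adjusted p = 0.118).

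All 8 brown adipocyte markers were above 0 in every library, with sums from 2791 to 9363 FPKM. Being above 0 does not bear on the tissue label, since no muscle or immune marker found was at 0 either. In each group the brown adipocyte sums were above those of the muscle and immune markers given below. Skeletal muscle genes moved with the groups too. In the cold, 11 of the 11 muscle genes found (12 listed) had both libraries higher (37.9% of all genes), with sums of 142 to 597 FPKM at 22 °C and 2015 to 4405 FPKM at 4 °C, and on HFD 10 of 11 had both lower (5.8% of all genes), with sums of 618 to 1569 FPKM on CD and 40.2 to 210 FPKM on HFD. None of the muscle genes was at 0 in any group, and 0 passed the threshold in either comparison (limma), although 11 in the cold and 10 on HFD had an unadjusted p under 0.05, as did 4280 of 17477 and 2532 of 17543 of all genes tested. Immune cell markers, 6 in all, summed to 10.7 to 18.3 FPKM in the cold and 11.9 to 14.4 FPKM at 22 °C, but to 50.9 to 58.4 FPKM on HFD against 8.20 to 17.9 FPKM on CD. On HFD 5 of the 6 had both libraries higher (39.9% of all genes) and 1, Cd79a, had both lower (5.8%). None of the 6 passed the threshold on HFD (limma). Cd79a and Cd3e were at most 0.285 FPKM in any library, so the sums follow the other markers. The part of muscle and immune cells in the members' differences was not tested, and in bulk tissue fewer cells of a type and less RNA per cell cannot be told apart.

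One library of each group (replicate 4 at 22 °C, replicate 11 at 4 °C, replicate 8 on CD, replicate 2 on HFD) stood apart by satellite-like sequence, with Gm10800 from 447 to 15726 FPKM against 0.0998 to 4.13 FPKM in the others. Where the groups do not overlap, the sign within each kind of library is fixed, which leaves Gm20186 on HFD as the single value free to differ. Within the libraries high and low in Gm10800, the cold log2 differences were 2.94 and 3.19 for Gm12840, 2.63 and 4.20 for Gm29408, 2.70 and 2.81 for Gm20186 and −1.29 and −0.91 for Gm9961. The diet differences were 0.54 and 0.96 for Gm12840, 0.54 and 1.45 for Gm29408, 0.28 and 0.77 for Gm20186 and −0.26 and −0.42 for Gm9961. With the kind of library as a term, a fit that put 745 genes past the threshold on HFD in place of 12, the limma adjusted p of the diet comparison was 0.0448 for Gm12840, 0.0351 for Gm29408, 0.0330 for Gm9961 and 0.119 for Gm20186, all with fitted changes under the fold limit. The identifiers in the sample descriptions also divide the diet libraries, CD replicate 6 having another prefix than the other 3. Without it the diet log2 fold changes were 0.91 for Gm12840, 0.74 for Gm20186, 0.39 for Gm29408 and −0.27 for Gm9961, and none passed (limma).

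What the members share beyond the copies is little. Their GC content ran from 45.1% to 55.6% by transcript, around the median of 47.3% over 12371 annotated lncRNA transcripts, and all were shorter than the median of 798 bases. The longest open reading frames were 51 codons in Gm12840, 16 in Gm29408, 71 in Gm20186 and 113 in Gm9961, against a median of 59. None held the poly(A) signal AATAAA in its last 50 bases, which 30.5% of lncRNA transcripts do, and the libraries had been made by rRNA depletion and did not need a poly(A) tail. A RefSeq promoter window of 300 bases around the start was found for Gm9961 alone. It held 0 matches, on either strand, to the cAMP response element TGACGTCA (1.80% of 32544 promoters) or its overlapping shorter core TGACG (20.9%), and 0 to AAGGTCA (4.71%), the longer DR1 element (0.0399%) and TATAAA (13.6%). No match says only that these letters are not in that window.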

How the data were processed

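RNA-Seq of BAT was available as 1 gene table with 8 libraries. The deposited values are FPKM, which the authors computed after rRNA depletion and directional sequencing with TopHat2 2.0.10 on GRCm38 and Cufflinks (2.2.1 in the submitters' processing notes), with Ensembl genes. Fragments that fit several places can move FPKM between copies, and total depth is unknown; low values were whole multiples of 1 fragment (within 0.1) for 97.8% to 98.6% of those examined.

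Autosomal genes with at least 0.1 FPKM in 2 of the 4 libraries of a comparison were tested as log2(FPKM + 1) with limma 3.58.1 (R 4.3.3) and Benjamini-Hochberg adjustment; the script was tested on simulated data. Symbols, positions and transcripts came from GENCODE M21 (49109 of 49452 genes matched), promoters from RefSeq (GRCm38), and copies from BLAST 2.17.0 (e-value 1e-05). Named were the members, overlapping genes, the 3 nearest protein-coding genes a side, the 3 protein-coding and 1 lncRNA genes with the highest r, genes around the choice's limit, and at most 4 thermogenic genes with values; genes next to these were named after their values were seen. Members and lists were chosen with earlier results of these data known. Alternatives changed the pseudocount, filter, scaling, covariate, samples and chromosomes. The within-kind differences were chosen after seeing the data.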

Additional observations from a re-analysis of the deposited data

How the results depend on the processing

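The direction of each member's cold and diet difference was the same under every alternative that gave a value. Gm9961 has no value on HFD with a filter of 1 FPKM. Most alternatives could not change the direction. Changes of filter, covariate or chromosomes and the fit of all 8 libraries left the fitted difference itself as it was. Where the groups do not overlap, the pseudocount or a library left out cannot turn the sign. Only the scaling, and for Gm20186 on HFD also those changes, could have turned it. In the cold, quantile normalization gave 2.57 for Gm12840 and 2.25 for Gm20186, and median centring gave 2.80, 2.49 and, for Gm9961, −1.36; a pseudocount of 0.1 FPKM gave −2.57 for Gm9961. On HFD, median centring gave 0.39 for Gm12840, 0.17 for Gm20186, 0.63 for Gm29408 and −0.70 for Gm9961. Quantile normalization gave 0.57, 0.36, 0.61 and −0.45 in the same order. A pseudocount of 0.1 FPKM gave −1.09 for Gm9961. With 1 library left out, Gm29408 ranged on HFD from 0.39 (without CD replicate 6) to 1.59 (without CD replicate 8). Gm20186 ranged from 0.07 to 0.98 and Gm12840 from 0.39 to 1.12. The lower values of both were without HFD replicate 6 and the higher without HFD replicate 2. Gm9961 ranged from −0.41 to −0.27. Adjusted p (limma) on HFD is given over the alternatives that kept all libraries. It ranged from 0.0448 to 0.846 for Gm12840, 0.119 to 0.894 for Gm20186, 0.0351 to 0.763 for Gm29408 and 0.0330 to 0.655 for Gm9961. Of the nearest protein-coding genes, 0 passed in either comparison in every alternative that kept all libraries. With no filter, however, 0 of all genes passed in both comparisons. The same held on HFD with quantile normalization or with X, Y and mitochondrial genes kept. In those fits the 0 of the neighbours was fixed beforehand and shows no stability.

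The count over all genes, 252 in the cold, was 474 with a pseudocount of 0.1, 529 with a filter of 1 FPKM, 0 with no filter, 491 with quantile normalization, 750 with median centring, 859 with the kind of library as a term, 439 with all 8 libraries in 1 fit, 920 with X, Y and mitochondrial genes kept, and 0 to 246 with 1 library left out (0 without either 4 °C replicate, 122 without 22 °C replicate 7). The count of 12 on HFD was 24, 0, 0, 43, 745, 75 and 0 for filter, no filter, quantile normalization, median centring, kind of library, all 8 libraries and those chromosomes kept, and 122 to 751 with 1 library left out. The cause was not tested. No paired analysis was possible because 22 °C and 4 °C share no replicate number and CD and HFD share only 1; the fit with the kind of library as a term blocks on that measured property instead. With 2 libraries a group, and as few as 3 fragments behind Gm9961, sizes are rough.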
